A study of Mus musculus with 6 samples.

Results

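The insulin-like growth factor (IGF) axis was read out as 10 genes in 2 mouse malignant mesothelioma cell lines, AB1 and AC29. The genes were fixed by name: the ligand gene Igf1, the receptor gene Igf1r, the adaptor genes Irs1 and Irs2, and the binding protein genes Igfbp2 to Igfbp7. All 10 were measured, among 18193 genes in all, by 26 probe sets that each carried a single gene symbol. Where a gene had several probe sets, the brightest over the 6 arrays was its main probe set and the others served as a check. Malignant mesothelioma arises from the lining of the chest and abdomen. AB1 carries the strain label BALB/c and was used at passage 40, and AC29 carries the strain label CBA and was used at passage 60. For both lines the labels give female sex and an age of 6 to 8 weeks. Cells of each line were grown in RPMI 1640 medium with 5% foetal calf serum in 3 flasks, the labels name no treatment, and RNA of each flask at 80% confluency went to 1 array, and p-values therefore reflect the spread among flasks only. Each strain is represented by a single line, so line, strain, passage and any processing batch cannot be told apart.

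IGF1 and IGF2 are secreted peptides that activate the type 1 IGF receptor, a tyrosine kinase, and through it the insulin receptor substrates IRS1 and IRS2, which recruit phosphatidylinositol 3-kinase and so lead to AKT and mTOR. The IGF binding proteins are secreted carriers that hold most extracellular IGF; they can keep the ligand from its receptor or deliver it, and proteases that cut them free the ligand. Several of them also act without IGF through integrins or the matrix. IGF signalling supports growth and survival in many tumours, mesothelioma among them.

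The deposited values were log2 RMA values, with a median per array between 5.76 and 5.81. A background floor of 6.07 was set as the 95th percentile of 86 probe sets for olfactory, vomeronasal and taste receptor genes. A line counted as above it for a gene where at least 1 of its arrays exceeded it. Calls needed an adjusted p under 0.05 (limma, Benjamini-Hochberg over 18193 genes) together with at least a 2-fold difference. Pearson's r across genes was 0.995 to 0.998 within the lines and 0.937 to 0.938 between them. AC29 replicate 14 stood apart on the second principal component, and its 18S rRNA control read 8.53 against 7.43 to 7.91 on the other arrays. It lay at an end of the AC29 range for 8 of the 10 IGF axis genes, against 73.8% of all genes. Of 12 mesothelial markers, 12 were above the floor in AC29 and 5 in AB1. Krt18 (12.38) and Msln (9.67) were among those above it in AB1, and Wt1 and Upk3b among those not. The summed level of the 12 ran from 75.5 to 75.8 in AB1 and from 132.1 to 133.5 in AC29. Of the 12, 10 were called higher in AC29, against 5.12% of all genes, and Msln was not called. The part of this list in the IGF axis differences was not tested. Of 7 measured leukocyte markers 3 were above the floor in each line. Csf1r and Cd3e were above it in both, Cd68 in AB1 alone and Lyz2 in AC29 alone. The other measured markers of this list were above it in neither line. The summed level of the list ran from 37.0 to 37.4 in AB1 and from 36.6 to 37.4 in AC29. Of 5 endothelial markers 1 was above the floor in each line, with sums of 25.1 to 25.5 in AB1 and 24.7 to 25.1 in AC29. Of 6 fibroblast markers 5 were above the floor in each line, with sums of 53.3 to 54.1 in AB1 and 59.1 to 61.0 in AC29. The fibroblast genes differed in both directions: Pdgfrb was called higher in AB1 (9.11 against 4.96, under the floor in AC29), and Dcn (5.98 against 12.81), Col1a1 (11.43 against 13.12) and Lum (4.46 against 6.00) were called higher in AC29. Lum exceeded the floor on 1 AC29 array and on no AB1 array, and Dcn on 1 AB1 array. Whether this list has a part in the IGF axis differences was not tested either.

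Receptor and adaptor were higher in AB1, and a binding protein was higher in AC29. Of the 10 genes, Igf1r and Irs1 were called higher in AB1 and Igfbp3 was called higher in AC29; the other 7 were not called. The rule called 10.9% of all genes tested, 5.12% toward AC29 and 5.82% toward AB1. By the adjusted p alone, without the 2-fold minimum, 6 of the 10 genes passed, Igf1, Igfbp4 and Igfbp6 being added, against 39.1% of all genes; Igf1 did not pass in 4 of the 6 fits that left out 1 array. AB1 and AC29 arrays were free of overlap for the same number, 6 of 10, against 50.1% of all genes. The median log2 difference of the 10 genes, AC29 minus AB1, was 0.17, and that of all genes was -0.0047. The median size of the difference regardless of sign was 0.51 for the 10 genes and 0.20 for all genes. Of the 10 genes 8 were above the floor in both lines, against 57.9% of all genes, and 1 in neither, against 36%. The medians thus compare sets with unlike shares of genes above the floor.

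**Figure D1:**
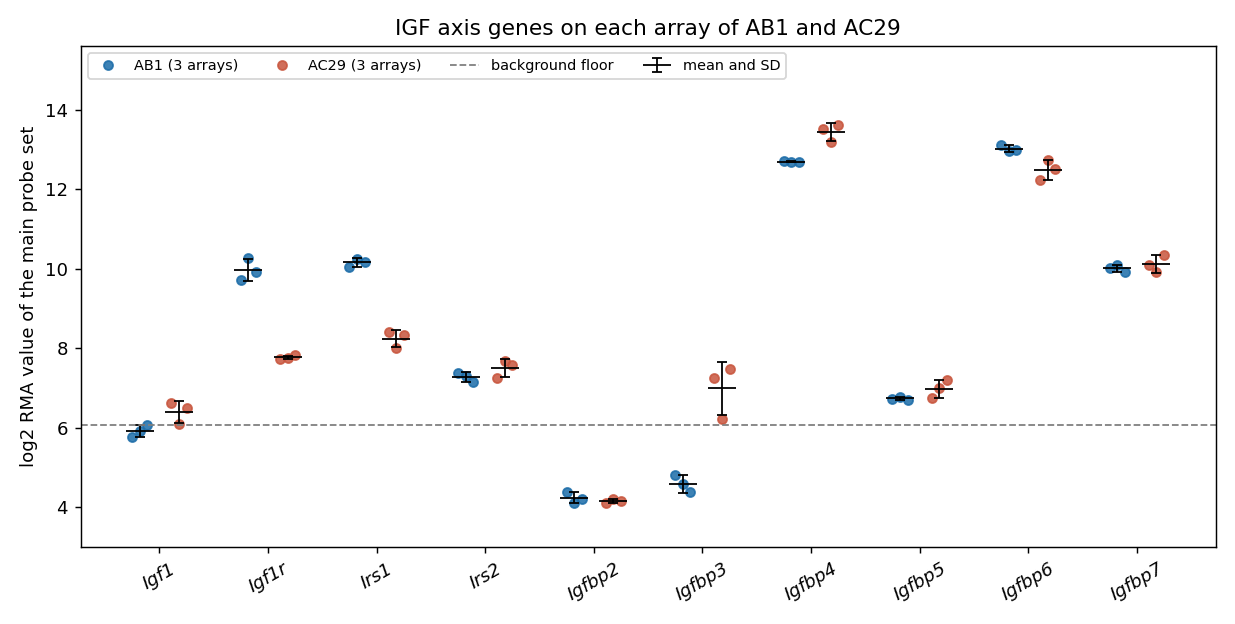
Log2 RMA value (vertical axis) of the main probe set of each of the 10 IGF axis genes (horizontal axis) on 3 AB1 arrays (blue) and 3 AC29 arrays (red); bars are the mean and SD, and the dashed line is the background floor of 6.07. Igf1r and Irs1 lie higher in AB1 and Igfbp3 higher in AC29, Igfbp2 lies under the floor in both lines, and levels are not comparable between genes.

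The ligand gene Igf1 was near background in both lines. It read 5.78, 5.92 and 6.08 in AB1 and 6.63, 6.09 and 6.49 in AC29. The AC29 arrays were all above the floor, and 1 of the 3 AB1 arrays just exceeded it; the highest AB1 array and the lowest AC29 array differed by little. The log2 difference was 0.48 ± 0.14 (SE), a 1.39-fold difference (limma adjusted p = 0.0266) under the 2-fold minimum. Leaving out each array in turn gave 0.36 to 0.63, and the limma adjusted p was above 0.05 without AB1 replicate 4 (0.102) or 5 (0.0730) and without AC29 replicate 13 (0.0943) or 15 (0.0821). On the 3 other Igf1 probe sets neither line exceeded the floor, although all 4 read higher in AC29 without overlap, by 0.36 to 0.76.

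Igf1r, which encodes the type 1 receptor, was 4.58-fold higher in AB1. It read 9.73, 10.26 and 9.91 on the AB1 arrays and 7.73, 7.76 and 7.82 on the AC29 arrays. Every AB1 array lay far above every AC29 array, and the AC29 arrays were the tighter group (SD 0.045, n = 3, against 0.27 in AB1). The log2 difference was -2.20 ± 0.13 (SE; limma adjusted p = 1.21e-06), with a 95% interval from -2.49 to -1.90, and it ranked 616th in size among all genes. The 4 other Igf1r probe sets were also lower in AC29 without overlap. Probe set 1426565_at differed by -1.64 and probe set 1428967_at by -2.26, and both passed the rule. Probe set 1446303_at read 6.48 to 6.85 in AB1 and did not exceed the floor in AC29, a difference of at least 1.55-fold; its log2 difference of -0.996 (limma adjusted p = 0.000575 over all probe sets) rests on AC29 values under the floor. Probe set 1452108_at stayed under the floor in both lines. On the 3 probe sets above the floor in both lines the log2 difference ran from -1.64 to -2.26.

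Irs1 and Irs2, the adaptors that dock on the activated receptor, were unlike each other. Irs1 read 10.04, 10.25 and 10.18 in AB1 and 8.40, 8.01 and 8.32 in AC29. The groups were well apart, and AC29 replicate 14 was the lowest array. AB1 was 3.77-fold higher, with a log2 difference of -1.92 ± 0.12 (SE; limma adjusted p = 1.50e-06; -1.80 without AC29 replicate 14). Irs1 had a single probe set, so no second measurement of it was at hand. Irs2 read 7.38, 7.31 and 7.15 in AB1 and 7.26, 7.68 and 7.58 in AC29, and the lines overlapped. Its log2 difference was 0.23 with a 95% interval from -0.052 to 0.51 (limma adjusted p = 0.193), an interval that leaves out a 2-fold difference in either direction. Leaving out each array gave 0.14 to 0.35, the highest without AC29 replicate 13 (limma adjusted p = 0.0343).

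Igfbp3, which encodes the main carrier of IGF in serum, was called higher in AC29 from values near the floor. Its main probe set read 4.82, 4.58 and 4.38 in AB1 and 7.26, 6.23 and 7.49 in AC29. All AB1 arrays were under the floor and all AC29 arrays above it, with AC29 replicate 14 well below the other two. AC29 was at least 1.89-fold higher against the floor. The log2 difference of 2.40 ± 0.28 (SE; limma adjusted p = 0.000119), or 2.78 without AC29 replicate 14, rests on AB1 values under the floor and is no measure of the true fold. The other Igfbp3 probe set, 1423062_at, read 4.21, 3.36 and 4.02 in AB1 and 7.28, 7.08 and 7.29 in AC29, at least 2.21-fold higher. On it AC29 replicate 14 was close to the other two. The AC29 mean of the main probe set, 6.99, and that of the other, 7.22, did not exceed 7.23, the 99th percentile of the probe sets that set the floor.

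Igfbp4, which encodes a binding protein that restrains IGF action and is itself cleaved by the protease PAPP-A, was higher in AC29 on each of its 6 probe sets, but its main probe set was not called. The main probe set read 12.70, 12.69 and 12.68 in AB1 and 13.50, 13.18 and 13.61 in AC29. The AB1 arrays were almost the same, and every AC29 array was higher. The log2 difference was 0.74 ± 0.11 (SE; 95% interval 0.48 to 0.996), a 1.67-fold difference with a limma adjusted p = 0.000703, and 0.86 without AC29 replicate 14. The 5 other probe sets all passed the rule, at log2 differences of 1.003 for 1437406_x_at, 1.31 for 1423756_s_at, 1.34 for 1423757_x_at, 1.45 for 1421992_a_at and 1.51 for 1421991_a_at. On the mean of the 6 probe sets Igfbp4 was called, at 1.22 (limma adjusted p = 8.21e-06). All 6 probe sets carry the suffix _a_at, _s_at or _x_at, by which the manufacturer marks probes shared between transcripts or open to cross-hybridisation.

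The remaining binding protein genes showed differences under 2-fold. Igfbp6, whose product prefers IGF2, read 13.11, 12.95 and 12.99 in AB1 and 12.23, 12.73 and 12.50 in AC29. The lines did not overlap, with the spread larger in AC29. Its log2 difference was -0.53 ± 0.13 (SE), a 1.45-fold difference with a limma adjusted p = 0.00862, and it was -0.66 without AC29 replicate 14. Igfbp7, whose product binds IGF weakly and sits in the vascular and tumour matrix, read 10.03, 10.09 and 9.92 in AB1 and 10.09, 9.91 and 10.35 in AC29. The lines overlapped, and the 95% interval of the log2 difference ran from -0.17 to 0.38 around 0.10. Its second probe set above the floor differed by -0.0063.

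Igfbp5, whose product binds matrix and IGF, read 6.73, 6.78 and 6.71 in AB1 and 6.75, 6.99 and 7.20 in AC29. The lines overlapped only at the lowest AC29 array, and the log2 difference was 0.24 with a 95% interval from -0.018 to 0.51 (limma adjusted p = 0.137). Leaving out each array gave 0.13, without AC29 replicate 15, to 0.36, without AC29 replicate 13 (limma adjusted p = 0.0269). The means, 6.74 in AB1 and 6.98 in AC29, lay under 7.23, the 99th percentile of the probe sets that set the floor. The second Igfbp5 probe set stayed under the floor. Igfbp2, which neighbours Igfbp5 on chromosome 1, read between 4.12 and 4.40 on all 6 arrays and was the only gene of the 10 that no array showed above the floor. Among the 6 binding protein genes, 1 was called higher in AC29 and none higher in AB1 in limma, where 10.9% of all genes were called; by the adjusted p alone 3 passed, against 39.1% of all genes.

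**Figure D2:**
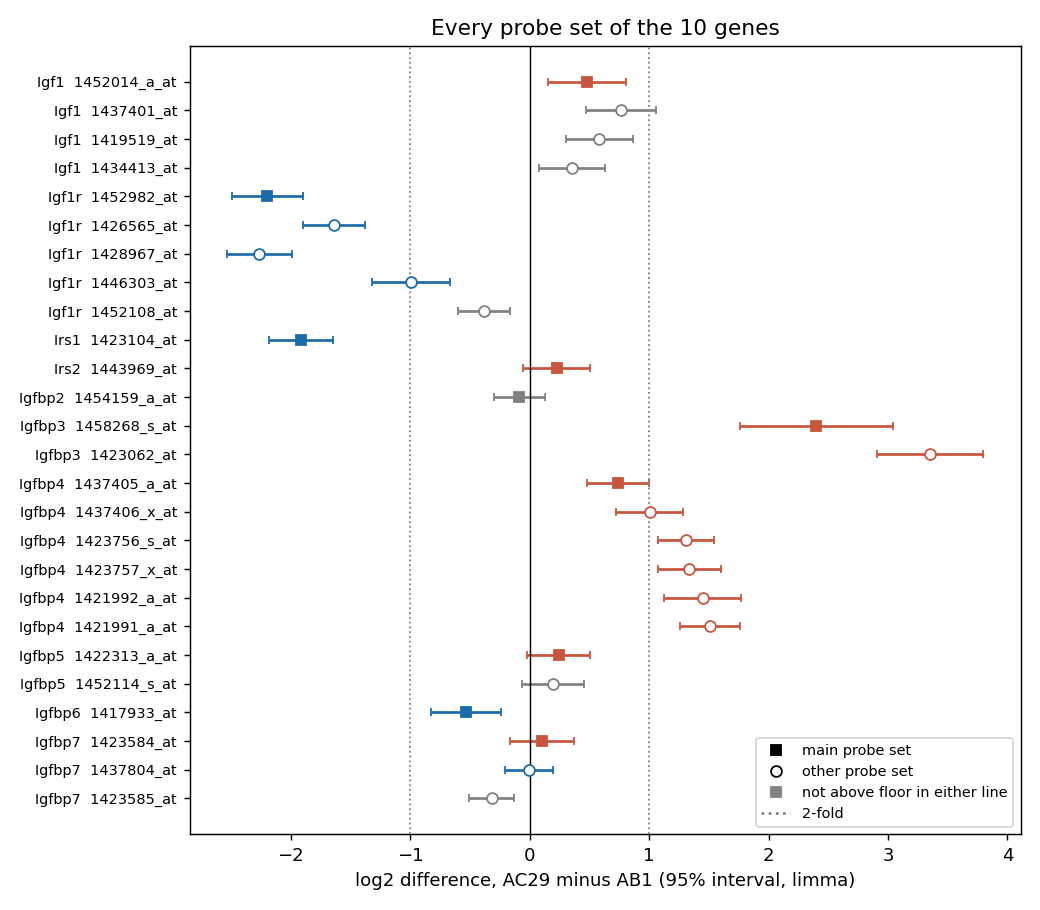
Log2 difference AC29 minus AB1 with its 95% interval from limma (horizontal axis) for each of the 26 probe sets of the 10 genes (vertical axis, brightest first within a gene); squares are the main probe sets, circles the others, grey marks probe sets under the floor on all arrays and dotted lines mark 2-fold. All 5 Igf1r probe sets lie left of 0, all 6 Igfbp4 probe sets right of 0 with 5 at or past 2-fold, and the 3 Igfbp7 probe sets run from -0.32 to 0.10.

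The spread between flasks was wider in AC29 for most of these genes. The SD was larger in AC29 than in AB1 for 8 of the 10 genes, against 62.5% of all genes. The median SD of the 10 genes was 0.11 in AB1 and 0.22 in AC29, and over all genes it was 0.090 and 0.12. Igfbp3 had the largest SD of the set, 0.67 in AC29, and Igfbp4 the smallest, 0.0092 in AB1.

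The sequences before the start sites of the 4 genes with at least 1 probe set past the rule are shown here in pairs, Igf1r and Irs1 higher in AB1 and Igfbp3 and Igfbp4 higher in AC29. They are the 250 bases before the annotated start, 5′ to 3′ along the gene, from RefSeq on build GRCm38.p6; all 10 genes matched an entry. Capitals mark matches, on either strand, to the GC box GGGCGG, the TATA box TATAAA or the CCAAT box CCAAT. Igf1r lies at chr7:67952007-67952256 on the plus strand, Irs1 at chr1:82291440-82291689 on the minus strand, Igfbp3 at chr11:7213924-7214173 on the minus strand and Igfbp4 at chr11:99040994-99041243 on the plus strand.
Igf1r: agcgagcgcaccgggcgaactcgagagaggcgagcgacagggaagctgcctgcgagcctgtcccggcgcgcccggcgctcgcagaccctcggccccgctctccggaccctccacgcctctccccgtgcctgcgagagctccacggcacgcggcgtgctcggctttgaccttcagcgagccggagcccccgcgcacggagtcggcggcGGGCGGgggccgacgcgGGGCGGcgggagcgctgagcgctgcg
Irs1: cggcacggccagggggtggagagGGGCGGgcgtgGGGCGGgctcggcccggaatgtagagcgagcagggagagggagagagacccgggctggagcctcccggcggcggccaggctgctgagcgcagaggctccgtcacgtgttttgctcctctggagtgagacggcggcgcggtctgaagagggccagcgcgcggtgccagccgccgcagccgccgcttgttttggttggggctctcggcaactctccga
Igfbp3: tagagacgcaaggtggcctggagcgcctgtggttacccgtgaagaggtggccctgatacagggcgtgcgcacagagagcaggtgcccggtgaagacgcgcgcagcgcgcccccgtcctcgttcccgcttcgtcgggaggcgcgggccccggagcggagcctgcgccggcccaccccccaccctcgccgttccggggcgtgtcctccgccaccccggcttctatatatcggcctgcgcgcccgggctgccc
Igfbp4: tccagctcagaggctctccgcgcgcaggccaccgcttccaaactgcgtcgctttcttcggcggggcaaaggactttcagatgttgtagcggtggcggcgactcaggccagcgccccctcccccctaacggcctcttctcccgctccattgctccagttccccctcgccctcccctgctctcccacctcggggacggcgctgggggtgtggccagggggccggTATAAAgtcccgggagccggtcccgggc

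The windows of Igf1r and Irs1 each held 2 GC boxes and no TATA box. The window of Igfbp4 held a TATA box that began 28 bases before the start, and no GC box. That of Igfbp3 held none of the 3 motifs as spelled here, and other spellings were not searched in any window. Among 32851 RefSeq windows of this length, 32.7% held a GC box, 12.4% a TATA box and 33.8% a CCAAT box. The G and C content was 77.6% for Igf1r, 72.4% for Irs1, 73.2% for Igfbp3 and 69.2% for Igfbp4, against a median of 52.4% over all windows. The arrays measured no promoter activity, and a motif match is a description of the letters.

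Among the other genes of the pathway, most of those called were higher in AB1. Of 73 listed genes 67 were measured. Of these, 12 were higher in AB1, 6 were higher in AC29 and 49 were not called. The rule called 10.9% of all genes, 5.82% toward AB1 and 5.12% toward AC29. The median log2 difference of the 67 was 0.018, against -0.0047 over all genes, and the median size was 0.31 against 0.20. Of the 67, 9 were above the floor in neither line, against 36% of all genes, so these medians also compare unlike sets. The limma adjusted p-values of the 18 called genes were at most 4.50e-05, and their standard errors ran from 0.0801 to 0.186. For 11 of them another probe set was above the floor, and 19 of these 20 probe sets had the same direction as the call. The exception, for Foxo1, differed by 0.17. In the direction of the call 17 of the 20 passed the rule, and those for Socs2 (-0.15) and Stc2 (-0.69) were under 2-fold. Of the 18, Pik3r3 was not called without AC29 replicate 14, Eif4ebp1 not without AC29 replicate 15 and Tsc2 not without AB1 replicate 6.

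Among ligands and receptors, the insulin receptor gene Insr was called, 1 of 5 measured. It read 7.51, 7.66 and 7.33 in AB1 and 5.96, 5.65 and 5.89 in AC29. No AC29 array was above the floor, and AB1 was at least 2.69-fold higher; its 2 other probe sets stayed under the floor. The scavenging receptor gene Igf2r read 8.07 ± 0.11 in AB1 and 8.22 ± 0.11 in AC29 (SD, n = 3) and the insulin gene Ins2 7.14 and 7.15, and neither was called. Ins2 had a single probe set, with the suffix _x_at. Its means lay under 7.23, the 99th percentile of the probe sets that set the floor. Igf2, named here after its values were seen because it encodes the second ligand, read 6.28 ± 0.13 in AB1 and 6.31 ± 0.11 in AC29, just above the floor in both lines.

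Of 5 other binding proteins and carriers, Ccn3 alone was called. Ccn3, a matricellular protein with an IGF binding protein-like domain, read 10.12, 10.03 and 10.21 in AB1 and 3.63, 4.38 and 4.36 in AC29. All AC29 arrays were far under the floor, and AB1 was at least 16.5-fold higher. On its second probe set AC29 was under the floor as well, and AB1 was at least 10.01-fold higher. Igfals, which encodes the acid-labile subunit of serum IGF complexes, read 6.34 and 6.36, just above the floor, and Igfbpl1 stayed under it. Igfbp1, also named after its values were seen because it neighbours Igfbp3 on chromosome 11, stayed under the floor, at 3.61 in AB1 and 3.52 in AC29.

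Of 8 binding protein proteases and their inhibitors, 1 was called in each direction. Htra1, a secreted serine protease that can cleave binding proteins, read 8.82, 8.89 and 8.59 in AB1 and 11.21, 11.33 and 11.27 in AC29. Both groups were tight, and AC29 was 5.65-fold higher (2.50 on the log2 scale, limma adjusted p = 8.03e-08), with a second probe set at 2.62. Stc2, a secreted inhibitor of PAPP-A, was 2.64-fold higher in AB1 (8.45 ± 0.08 against 7.05 ± 0.21, SD, n = 3). Its other probe sets differed by -2.10 and -0.69 on the log2 scale. The protease gene Adamts1 read 9.10 and 9.97, a log2 difference of 0.87 that stayed under the minimum, and the cathepsin gene Ctsd read 10.97 and 11.03. Pappa, which encodes PAPP-A and was named after its values were seen, exceeded the floor on none of its 3 probe sets.

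Among 15 adaptors and regulators of receptor signalling, 4 were higher in AB1 and 2 in AC29. Socs2, which damps signalling from the growth hormone receptor, read 9.94, 9.99 and 9.63 in AB1 and 6.27, 5.93 and 6.08 in AC29. AC29 lay around the floor and AB1 far above it, with a log2 difference of -3.76 (13.5-fold, limma adjusted p = 2.54e-08). On a second Socs2 probe set AC29 was under the floor and AB1 at least 10.4-fold higher, and another above the floor differed by -0.15. Grb14, an adaptor that inhibits the insulin receptor, was 6.08-fold higher in AB1 (8.97 ± 0.07 against 6.37 ± 0.15, SD, n = 3), and the related Grb10 at least 1.23-fold. The other Grb10 probe sets stayed under the floor in both lines, at log2 differences of 0.0039 and -0.39. On the mean of its probe sets Grb10 was not called. Rasa1, which encodes a GTPase activating protein for Ras, was 2.27-fold higher in AB1. Gab1, a docking protein, was 2.49-fold and Socs3, an inhibitor of cytokine signalling, 2.39-fold higher in AC29. The adaptor genes Crk (11.29 in AB1 and 11.44 in AC29) and Ptpn11, a phosphatase (10.44 and 10.59), were not called.

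In the branch from phosphatidylinositol 3-kinase to AKT and mTOR, 28 of 31 listed genes were measured, and 4 were higher in AB1 and 2 in AC29. Foxo1, a transcription factor that AKT keeps out of the nucleus, read 9.23, 9.40 and 9.24 in AB1 and 7.57, 7.32 and 7.60 in AC29. The lines did not overlap, and AB1 was 3.47-fold higher (-1.80 on the log2 scale, limma adjusted p = 9.94e-07). Phlpp1, a phosphatase that acts on AKT, was 3.56-fold higher in AB1 (8.87 ± 0.16 against 7.04 ± 0.16, SD, n = 3). Trib3, a pseudokinase that can bind AKT, was 2.88-fold and Eif4ebp1, a brake on translation that mTOR relieves, 2.08-fold higher in AB1. Tsc2, which restrains mTOR through Rheb, was 2.07-fold higher in AC29, and Pik3r3, a regulatory subunit of the kinase, at least 1.07-fold. The kinase gene Akt1 read 11.16 and 10.56 (log2 difference -0.59, limma adjusted p = 0.000919) and Rheb 12.30 and 12.08, both under the 2-fold minimum.

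Of 6 measured regulators of IGF gene expression, 1 was called in each direction. Hmga2, an architectural chromatin protein of embryonic cells and tumours, read 12.93, 13.01 and 13.01 in AB1 and 8.41, 8.47 and 8.21 in AC29. AB1 was 24.6-fold higher (-4.62 on the log2 scale, limma adjusted p = 1.33e-09), and the 3 other Hmga2 probe sets, 1 of them under the floor, were lower in AC29 too. Wt1, a zinc finger transcription factor of mesothelium, was at least 11.5-fold higher in AC29. The RNA binding protein gene Igf2bp1 (7.41 in AB1 and 8.12 in AC29) was not called on its main probe set, at a log2 difference of 0.71 (limma adjusted p = 0.000273). Another Igf2bp1 probe set differed by 1.70 (limma adjusted p = 1.52e-05 over all probe sets), and the gene was called on the mean of its probe sets. The related Igf2bp3 (7.08 and 7.18) was not called.

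**Figure D3:**
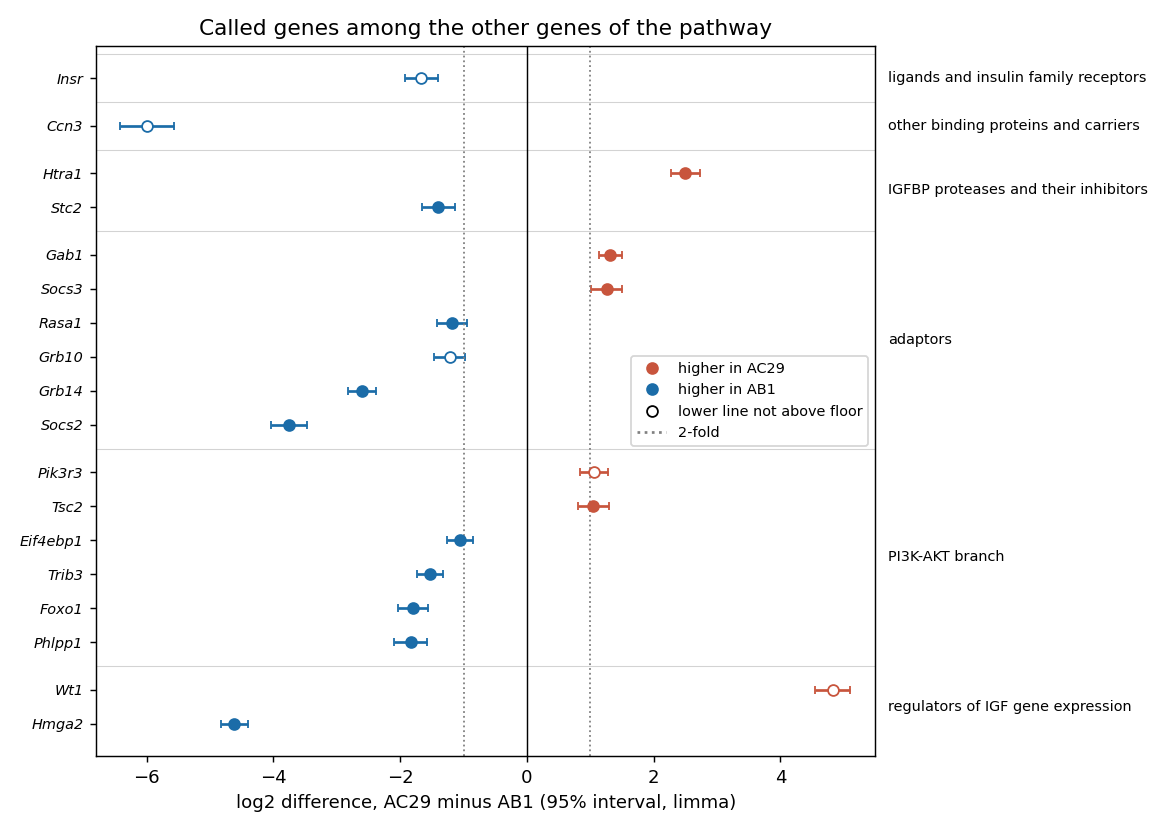
Log2 difference AC29 minus AB1 with its 95% interval from limma (horizontal axis) for the 18 called genes among 67 other measured genes of the pathway (vertical axis), grouped by role; open circles mark genes whose lower line was not above the floor, for which the difference is no measure of the fold, and dotted lines mark 2-fold. Ccn3, Hmga2 and Socs2 lie farthest toward AB1, and Wt1 and Htra1 farthest toward AC29.

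The genes whose pattern over the 6 arrays was closest to that of Igf1r, after each gene was centred on its own mean, were Zfhx3, 9130023H24Rik and Pde4b, with root-mean-square distances of 0.035, 0.068 and 0.11 on the log2 scale. In AC29 the means of 9130023H24Rik (4.91) and Pde4b (5.83) were under the floor. Those closest to Igfbp3 were Neurl1b, Ypel2 and Mras, at distances of 0.21, 0.23 and 0.26. In AB1 the means of Neurl1b (5.97) and Ypel2 (5.76), as well as that of Igfbp3 itself, were under the floor. With 2 lines, this likeness is mainly a likeness of the difference between them.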

How the data were processed

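Total RNA of 3 AB1 and 3 AC29 flasks was hybridised to Affymetrix 3′ expression arrays, per the labels' protocols. The authors deposited a table of log2 values for 45101 probe sets on 6 arrays. GCOS, RMA and Partek 6.4 are named, without roles, in the submitters' processing notes. The log2 scale was taken from the range of the values and these notes. Probe-level intensities, detection calls and scan dates were not analysed here. After 64 controls were left out, 34945 probe sets had 1 gene symbol in the platform annotation, 932 had several and 9160 had none; the 10 members' Entrez identifiers all matched RefSeq.

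Line was the only term of a linear model fitted to every probe set with limma 3.58.1 in R 4.3.3 (lmFit, eBayes, 2-sided), adjusted by Benjamini-Hochberg over 18193 genes, or over all probe sets for second probe sets. Where no array of a line exceeded the floor, a lower bound of the fold was taken from the floor. The fit was tested on simulated data. Precision is limited by the number of arrays, with a median standard error of 0.0999. Members and gene lists were chosen with earlier results of these data known. Named were all members with their probe sets, all called pathway genes and the 2 brightest uncalled genes of each list, up to 4 markers per list and the 3 genes nearest to the most different called member in each direction. The alternatives were quantile normalization, median centring, a filter on dim genes, averaging over probe sets, leaving out suffixed probe sets, trend and robust moderation, array weights, other fold minimums, other floors and leaving out each array.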

Additional observations from a re-analysis of the deposited data

How the results depend on the processing

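Igf1r, Irs1 and Igfbp3 were called under all 15 alternatives to the whole fit, but not all of these could drop a call. Removing the fold minimum could only add calls, and the filter on dim genes changed only the adjustment. Irs1 had a single probe set without a suffix, so averaging probe sets or leaving out suffixed ones returned the same difference. Leaving out suffixed probe sets also kept the main probe set of Igf1r. Without a fold minimum the members called rose from 3 to 6 (3 toward AC29), all genes from 1991 to 7105 (3475 toward AC29, 3630 toward AB1) and the pathway genes from 18 to 36 (14 toward AC29, 22 toward AB1). Tested by limma's treat against 2-fold, 1237 genes (565 toward AC29, 672 toward AB1) and 11 pathway genes (3 toward AC29) passed. With probe sets averaged per gene 2 members were called toward AC29, Igfbp4 being added. The sign of Igfbp7, which was never called, turned on the mean of its probe sets (-0.072), without AC29 replicate 15 (-0.013; leaving out each array gave -0.013 to 0.21) and on its other probe sets (-0.0063 and -0.32); the cause was not tested. No other member changed sign in any alternative. Of the 18 pathway calls, 13 remained when probe sets ending in _s_at, _x_at or _a_at were left out. Those lost were Ccn3, Grb10, Trib3, Tsc2 and Wt1, which had no probe set without such a suffix. On the mean of the probe sets 16 remained, Grb10 and Insr being lost, while Igf2bp1 and Sesn2 were added. With the floor at the 90th percentile the bound for Igfbp3 was 1.31 on the log2 scale against 0.92, and at the 99th no bound could be given. No paired analysis was possible because the replicate numbers of the lines do not overlap. The signal over background limits what can be said of Igf1, Igfbp2, Igfbp3, Igfbp5, Igf2, Ins2, Igfals and Pik3r3.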
